A study of Mus musculus with 8 samples.

Results

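The 10 genes described here encode proteins that modify, fold, trim and crosslink fibrillar collagen: *P4ha1*, *P3h1*, *Plod1*, *Plod2*, *Serpinh1*, *Bmp1*, *Pcolce*, *Adamts2*, *Lox* and *Loxl1*. They were taken by name from the table of log2 expression values, where all 10 of them were found among 12148 genes. The values come from dental pulp (DP) of the first molars (M1s) of C57BL/6J mice at postnatal day 7 (P7), in 8 libraries of which 4 are Osterix-Cre controls and 4 *Tgfbr2cko*. Both genotypes carry a Cre transgene driven by Osterix, whose promoter is used by the mesenchyme that gives rise to odontoblasts and osteoblasts; the *Tgfbr2cko* mice also carry floxed *Tgfbr2*, the gene of the type II receptor of TGFβ (Osterix-Cre:Tgfbr2f/f). Left and right M1s were pooled in each sample, males and females were used in equal number, and the pulp holds cells in which this Cre is not active. The sources do not tie each library to a separate animal or litter, so p measures the spread between these libraries.

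A procollagen chain is modified before its triple helix closes. Prolyl hydroxylases stabilize the helix, lysyl hydroxylases prepare the lysines that later carry crosslinks and sugars, and the chaperone HSP47 holds the folded helix until it leaves the endoplasmic reticulum. Outside the cell, separate proteinases remove the propeptides from the amino and the carboxyl end, and the trimmed molecules assemble into fibrils that lysyl oxidases crosslink. Type I collagen matured in this way is the main organic component of dentin, and TGFβ is widely known as an inducer of collagen and of several of its processing enzymes.

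Promoter sequence was searched for 2 short motifs on both strands, the hypoxia response core ACGTG and the SMAD box CAGAC, in windows from 250 bases before to 50 bases after a gene's start (RefSeq, GRCm38.p6). Of the 10 genes, 6 had an entry, with 7 windows because *P3h1* has 2 starts; *Bmp1*, *Plod2*, *Lox* and *Loxl1* had none. The hypoxia response core stood in a window of 3 of the 6 genes (*P4ha1*, *Serpinh1* and, at its second start, *P3h1*), against 19.6% of 32851 mouse promoters. The SMAD box stood in 2 of the 6 (*Serpinh1* and *Plod1*), against 49.6%. These counts are by gene, where either window of *P3h1* could match, while the shares over all promoters are by single promoter. No base was shared by matches of the 2 motifs. A match describes letters and not a bound site. The windows of *P4ha1*, the gene that was higher in the mutants, and of *Serpinh1*, the only gene with both motifs, are printed with the matches in capitals, CACGT being the reverse complement of the hypoxia response core and GTCTG that of the SMAD box. The first lies at chr10:59323046-59323345 on the plus strand and the second at chr7:99353190-99353489 on the minus strand.
P4ha1: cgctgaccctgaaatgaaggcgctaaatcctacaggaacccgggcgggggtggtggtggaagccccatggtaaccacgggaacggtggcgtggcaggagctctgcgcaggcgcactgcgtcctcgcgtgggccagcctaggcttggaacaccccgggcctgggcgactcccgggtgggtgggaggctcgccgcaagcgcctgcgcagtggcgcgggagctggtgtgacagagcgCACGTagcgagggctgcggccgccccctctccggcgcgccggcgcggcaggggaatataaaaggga
Serpinh1: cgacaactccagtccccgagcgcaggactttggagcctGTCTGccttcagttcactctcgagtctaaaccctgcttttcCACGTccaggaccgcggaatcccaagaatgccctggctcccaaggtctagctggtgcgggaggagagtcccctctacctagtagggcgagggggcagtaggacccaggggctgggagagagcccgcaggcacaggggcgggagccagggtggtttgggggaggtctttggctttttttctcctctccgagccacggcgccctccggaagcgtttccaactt

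Levels of different genes were compared only as RPKM (counted reads scaled to library total and to annotated exon length), recalculated from the reads behind the deposited values. In the controls *Serpinh1*, the gene of HSP47, had 670 ± 140 RPKM (SD, n = 4) and *Pcolce*, which enhances removal of the carboxyl propeptide, had 411 ± 54.6. *Lox* followed at 80.8 ± 32.4, *P3h1* at 66.5 ± 5.46, *Bmp1* at 34.4 ± 3.97 and *Plod2* at 31.6 ± 7.73. The lower end held *Plod1* at 28.4 ± 2.68, *P4ha1* at 27.7 ± 6.18, *Adamts2* at 20.9 ± 4.86 and *Loxl1* at 8.04 ± 2.54 RPKM, so that the highest mean was 83.4 times the lowest. Each of *Serpinh1* over *Pcolce*, *Pcolce* over *Lox*, *P3h1* over *Bmp1*, *P4ha1* over *Adamts2* and *Adamts2* over *Loxl1* held in 4 of 4 controls. The order of *Lox* and *P3h1* and of *Plod2* and *Plod1* held in 3 of 4, and that of *Bmp1* and *Plod2* and of *Plod1* and *P4ha1* in 2 of 4, with mean log2 differences smaller than their SD. The order depends on the length used: with the longest protein-coding transcript in place of all annotated exons, *Pcolce* came first at 967 RPKM, followed by *Serpinh1* at 720 and *Bmp1* at 82.9, while *Loxl1* stayed last. Together the 10 genes took between 0.351% and 0.583% of the counted reads of a library.

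**Figure D1:**
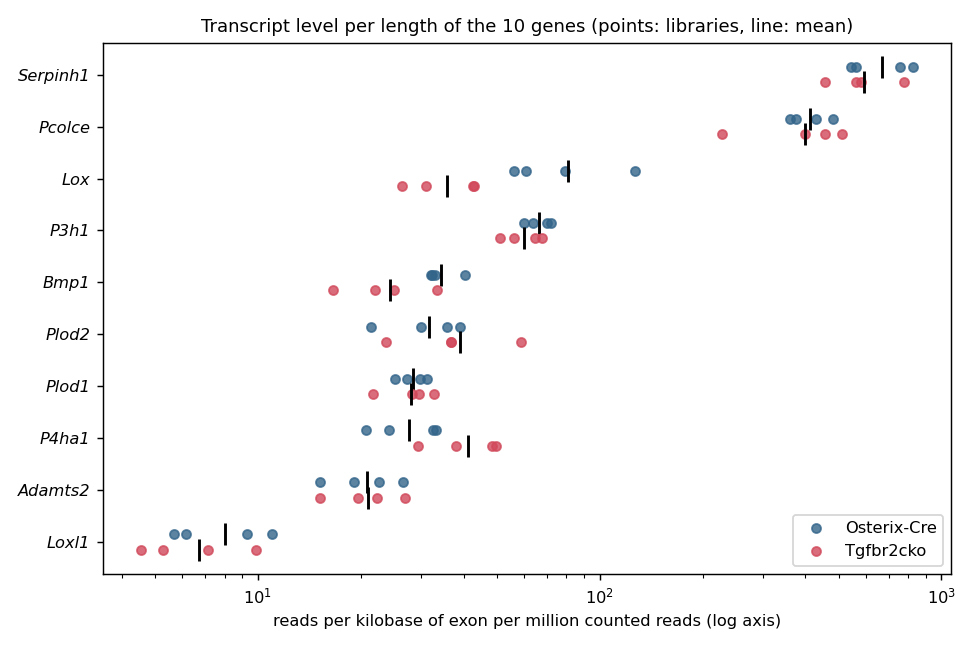
Level of each of the 10 genes in RPKM over all annotated exons (log axis), with 1 point per library for Osterix-Cre and *Tgfbr2cko* and a line at each mean. The control means run from 8.04 for *Loxl1* to 670 for *Serpinh1*, and the points of the genotypes lie fully apart only for *Lox*.

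Several facts of the libraries bear on the results. Between 8682872 and 13539670 reads were counted per library, so 1 read was 0.0739 to 0.115 CPM, and each of the 10 genes had at least 151 reads in every library. *Tgfbr2* had log2 values of 7.16, 7.62, 7.64 and 7.52 in controls 49 to 52 and of 7.02, 7.00, 7.16 and 7.61 in mutants 53 to 56, where the numbers are those of the labels. The library labelled Tgfbr2cko 56 thus lay in the control range. Control 49 had about the value of mutant 55, below the other controls. In library 56 *Amelx* and *Ambn*, which encode enamel matrix proteins of ameloblasts, took 18.5% of the reads against 0.326% to 2.74% in the other 7. The genes that passed are therefore also given without library 56. All 9 odontoblast markers were measured, and their summed level was 11606 to 24573 CPM in the controls and 8047 to 15268 CPM in the mutants, with 1 marker higher and 3 lower at an unadjusted limma p under 0.05, which 3.3% of all genes passed in the higher and 5.08% in the lower direction. Of the other lists, pulp mesenchyme had 1 of 8 lower, endothelium 2 of 5 lower, macrophage 2 of 5 lower, pericyte and smooth muscle 1 of 3 lower, Schwann cell 1 of 2 higher, dental epithelium 1 of 8 in each direction, and enamel matrix and erythroid lists none of 3 and 5. No measured marker was at 0 reads in any library. In bulk pulp, fewer cells of a type and less RNA per cell cannot be told apart, and the part of cell makeup in the results that follow was not tested.

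The genotype comparison asks whether loss of the TGFβ receptor in the dental mesenchyme goes with other levels of the collagen-maturing genes. Fold changes are *Tgfbr2cko* over Osterix-Cre on the log2 CPM scale, and a gene is said to have risen or fallen at an unadjusted two-sided limma-trend p under 0.05. By that rule *Lox* and *Bmp1* fell, *P4ha1* rose, and 7 of the 10 genes did not pass. Across all genes 8.38% passed, 3.3% higher and 5.08% lower in the mutants. In this fit only *Lox* was also changed at least 1.5-fold, the threshold of the study for an altered transcript, which 5.77% of all genes met. *Bmp1* was at 0.687-fold here. The paper, with the same thresholds and its own limma fit on voom values, lists *Bmp1* and the type I collagen gene *Col1a1* among its downregulated genes. After Benjamini-Hochberg adjustment over 12148 genes none of the 10 had an adjusted limma p under 0.05, against 0.947% of all genes. The median log2 fold change of the 10 genes was -0.13, beside -0.0053 for all genes, with 3 means higher and 7 lower in the mutants. Without the library labelled Tgfbr2cko 56 these medians were -0.018 and 0.070. Without control 52 the median of the 10 was -0.047, beside -0.041 for all genes.

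**Figure D2:**
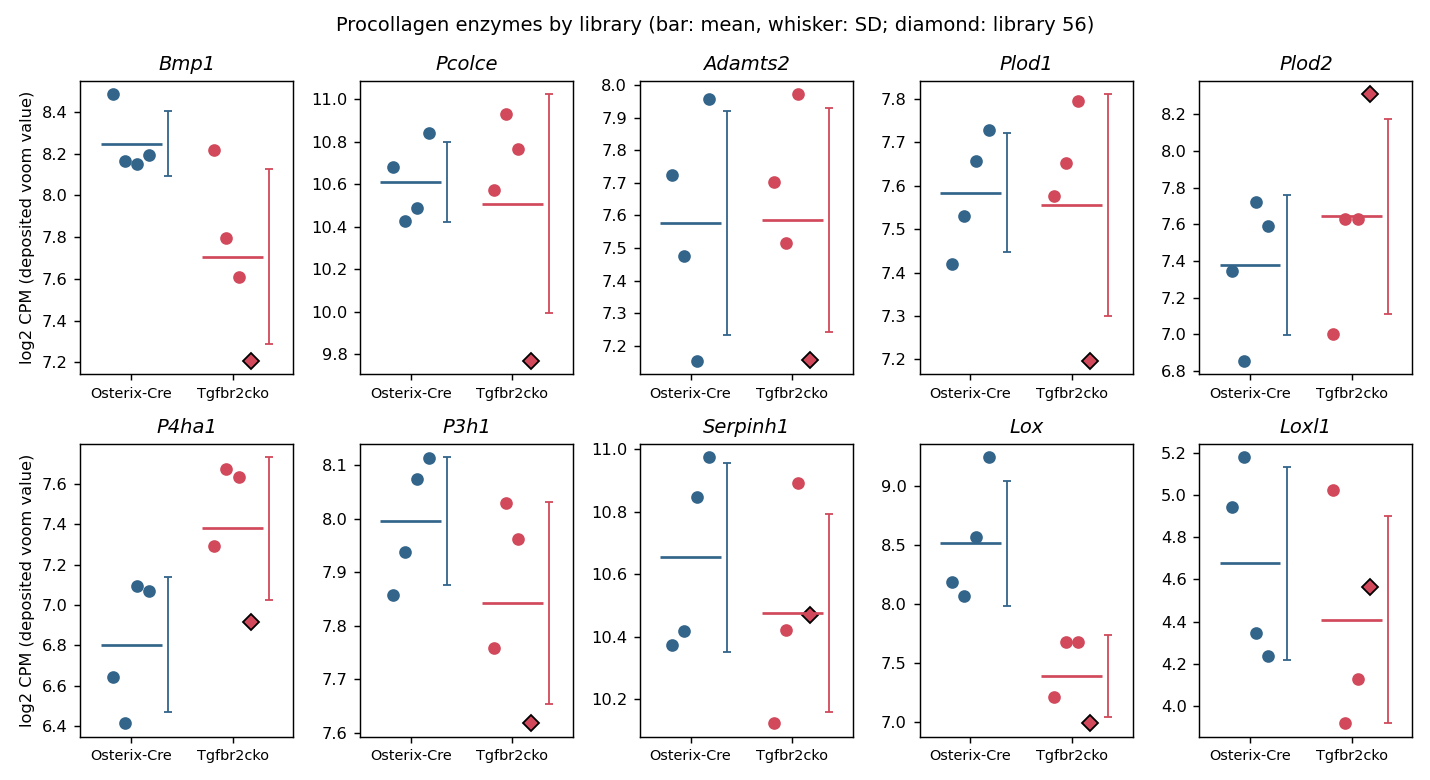
log2 CPM of the 10 genes in each library, with the mean as a bar and the SD as a whisker beside the points; the diamond marks the library labelled Tgfbr2cko 56, and each panel has its own axis. The 4 mutant values of *Lox* (6.99 to 7.68) lie below the 4 control values (8.07 to 9.25), those of *P4ha1* lie mostly above, and the other 8 genes overlap.

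Among the crosslinking enzymes, *Lox* (ENSMUSG00000024529.13, chr18:52516067-52529867, GRCm38) encodes lysyl oxidase, which oxidizes lysines of collagen and elastin so that crosslinks can form. Libraries 49 to 56 gave log2 values of 8.18, 8.07, 8.56 and 9.25 in controls 49 to 52 and 7.21, 7.67, 7.68 and 6.99 in mutants 53 to 56. All 4 mutants lay below all 4 controls, a separation found in the lower direction for 3.14% of all genes. The mean fell from 8.52 ± 0.53 to 7.39 ± 0.35 (SD, n = 4). This is a log2 fold change of -1.13 with a standard error of 0.25, a ratio of 0.457 with a 95% interval of 0.316 to 0.662. Limma gave a p of 0.000531 (adjusted p = 0.0546), while the exact permutation test gave 0.0286, the smallest p that its 70 arrangements allow. Without the library labelled Tgfbr2cko 56 the log2 fold change was -0.995 with an adjusted limma p of 0.0856. Over all settings without a block on the title number the adjusted limma p ran from 0.0260 with library weights to 0.154 without control 51, and it was 0.0446 without control 50. *Loxl1* (chr9:58287738-58313186), a lysyl oxidase paralog best known for its part in elastic fibers, was measured with 151 to 350 reads per library. It had log2 values of 4.94, 5.18, 4.35 and 4.23 for the controls and 5.03, 3.92, 4.13 and 4.57 for the mutants, and the groups overlapped. The log2 difference of -0.27 had a 95% interval of -0.86 to 0.32 (limma p = 0.344, exact permutation p = 0.429), and ran from -0.099 without control 50 to -0.47 without mutant 53. Controls had a log2 ratio of *Lox* to *Loxl1* of 3.84 ± 0.96 and mutants one of 2.98 ± 0.79, a difference of -0.86 that the exact permutation test did not separate from the spread (p = 0.229), so a different response of the paralogs was not shown. It ran from -0.47 without control 52 to -1.18 without control 50.

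Removal of the carboxyl propeptide involves *Bmp1* (ENSMUSG00000022098.9, chr14:70474558-70520234), the procollagen C-proteinase, which also acts on dentin matrix proteins. Its log2 values were 8.48, 8.16, 8.15 and 8.19 in Osterix-Cre and 8.22, 7.80, 7.61 and 7.21 in *Tgfbr2cko*. Of the mutants, 3 lay below all controls, and library 53 lay among them. The genotypes differed by -0.54 on the log2 scale (standard error 0.20), at a limma p of 0.0159 that adjustment brought to 0.338 and an exact permutation p of 0.114. Without the library labelled Tgfbr2cko 56 the difference was -0.38 (unadjusted limma p of 0.0404, adjusted p = 0.473), and without mutant 53 it was -0.71. *Pcolce* (chr5:137605103-137613784), whose product binds the propeptide and speeds its removal by *Bmp1*, had log2 values of 10.68, 10.43, 10.49 and 10.84 across controls 49 to 52 and 10.57, 10.93, 10.76 and 9.77 across the mutants. Library 56 alone was below the control range, and the sign of the difference rested on it, at -0.10 (95% interval -0.65 to 0.45) with it and 0.15 without it. The log2 ratio of *Bmp1* to *Pcolce* differed by -0.44 between the genotypes, with an exact permutation p of 0.114. The amino propeptide is removed by the product of *Adamts2* (chr11:50602084-50807573), the gene mutated in dermatosparaxis. Libraries 49 to 56 gave log2 values of 7.72, 7.48, 7.15 and 7.96 for the controls and 7.70, 7.52, 7.97 and 7.15 for the mutants, nearly the same span in both. The difference of 0.0087 had a 95% interval of -0.43 to 0.45, and its sign changed when any of 4 libraries (50, 51, 53 or 55) was left out.

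Among the hydroxylases, *P4ha1* (ENSMUSG00000019916.14, chr10:59323296-59373304) encodes a catalytic subunit of collagen prolyl 4-hydroxylase. It had log2 values of 6.64, 6.41, 7.09 and 7.07 in Osterix-Cre and 7.29, 7.68, 7.63 and 6.92 in *Tgfbr2cko*. The first 3 mutants lay above every control, and library 56 lay within the control range. The mean rose from 6.80 ± 0.33 to 7.38 ± 0.35 (SD, n = 4), a log2 fold change of 0.58 (standard error 0.20) or 1.49-fold. The limma p was 0.0142 and the adjusted p 0.321, and the exact permutation test gave 0.0857. Without the library labelled Tgfbr2cko 56 the log2 fold change was 0.73, with an unadjusted limma p of 0.00162 and an adjusted p of 0.0930. Without control 50 it was 0.45 and no longer passed (unadjusted limma p of 0.0542, adjusted p = 0.754). *P3h1* (chr4:119232915-119248975), a prolyl 3-hydroxylase that acts in a complex with cartilage-associated protein and cyclophilin B, had log2 values between 7.86 and 8.11 in the controls and between 7.62 and 8.03 in the mutants. Its difference was -0.15 (95% interval -0.47 to 0.16), and -0.079 without the library labelled Tgfbr2cko 56.

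*Plod1* (chr4:147909753-147936767) encodes the lysyl hydroxylase of the helical part of collagen. Its log2 values were 7.42, 7.53, 7.66 and 7.73 across controls 49 to 52 and 7.58, 7.65, 7.79 and 7.20 across the mutants, with a difference of -0.028 (95% interval -0.36 to 0.31) that was 0.091 without the library labelled Tgfbr2cko 56. *Plod2* (chr9:92542223-92608428), which hydroxylates lysines of the telopeptides, had log2 values of 7.34, 6.86, 7.72 and 7.59 for the controls and 7.00, 7.63, 7.63 and 8.31 for the mutants. The library labelled Tgfbr2cko 56 was the highest of all 8, and the log2 difference of 0.26 (95% interval -0.28 to 0.81) was 0.043 without it. That difference was 0.091 without control 50 and 0.48 without mutant 53. Of the annotated exon bases of *Plod2*, 6.42% overlap the transcript Gm38391 of the opposite strand, and 2.93% of those of *Pcolce* overlap *Fbxo24* on the same strand and *Gm36266* on the other; whether counting used the strand was not given in the sources used here. Reads in these overlaps cannot be told apart, those shared with *Fbxo24* whether or not strand was used. Controls had a log2 ratio of *Plod2* to *Plod1* of -0.20 ± 0.32 and mutants one of 0.088 ± 0.72 (exact permutation p = 0.571), with the highest mutant ratio of 1.11 again in library 56. *Serpinh1* (chr7:99345376-99353239) had log2 values of 10.37, 10.42, 10.85 and 10.97 in Osterix-Cre and 10.12, 10.42, 10.89 and 10.47 in *Tgfbr2cko*, which overlapped over most of their range. Its difference was -0.18 (95% interval -0.67 to 0.31), from -0.059 without mutant 53 to -0.32 without mutant 55. Of the 7 genes that did not pass, *Plod1*, *Adamts2* and *P3h1* had intervals that hold no 1.5-fold change in either direction, although *Adamts2* was at 0.59 in a model with a block on the title number, and the widest limits were those of *Loxl1* downward (-0.86) and *Plod2* upward (0.81), short of 2-fold.

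The substrates were measured in the same libraries. *Col1a1*, the gene of the more abundant chain of type I collagen, differed by -0.86 on the log2 scale (limma p = 0.179, exact permutation p = 0.0571). It passed without the intensity trend (unadjusted limma p of 0.0102, adjusted p = 0.280) and with voom weights (unadjusted limma p of 0.0115, adjusted p = 0.287), and it was at -0.38 after quantile normalization. *Col1a2*, the gene of the second chain, had log2 values of 14.47, 13.83, 14.47 and 15.09 across controls 49 to 52 and 12.93, 13.41, 13.68 and 12.98 across the mutants, without overlap. It fell by 1.22 on the log2 scale (standard error 0.43, limma p = 0.0139, adjusted p = 0.316, exact permutation p = 0.0286), and the difference was -1.13 without the library labelled Tgfbr2cko 56. *Col5a1*, a chain of the type V collagen that helps to set the diameter of type I fibrils, had 9.53, 9.21, 9.54 and 9.32 for the controls and 8.80, 8.77, 8.72 and 8.65 for the mutants, and it fell by 0.66 (limma p = 0.000644, adjusted p = 0.0602, exact permutation p = 0.0286), with a difference of -0.63 without the library labelled Tgfbr2cko 56. Over the same settings as for *Lox* its adjusted limma p ran from 0.0164 with library weights to 0.216 without control 51. *Col5a2* differed by -0.24 (limma p = 0.314, exact permutation p = 0.4) and *Col3a1*, the chain of type III collagen, by 0.078 (limma p = 0.754, exact permutation p = 0.743). The sign of *Col3a1* turned without control 49 (-0.11) or the library labelled Tgfbr2cko 56 (-0.10) and with library weights (-0.099). *Col5a2* was at -0.053 without control 52 and -0.11 without mutant 53. Reads of *Col1a1* and *Col1a2* together were 5.36% to 11.5% of a control library and 3.12% to 6.27% of a mutant library. On the log2 scale their sum averaged 16.28 ± 0.45 for controls and 15.33 ± 0.45 for mutants (exact permutation p = 0.0571).

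**Figure D3:**
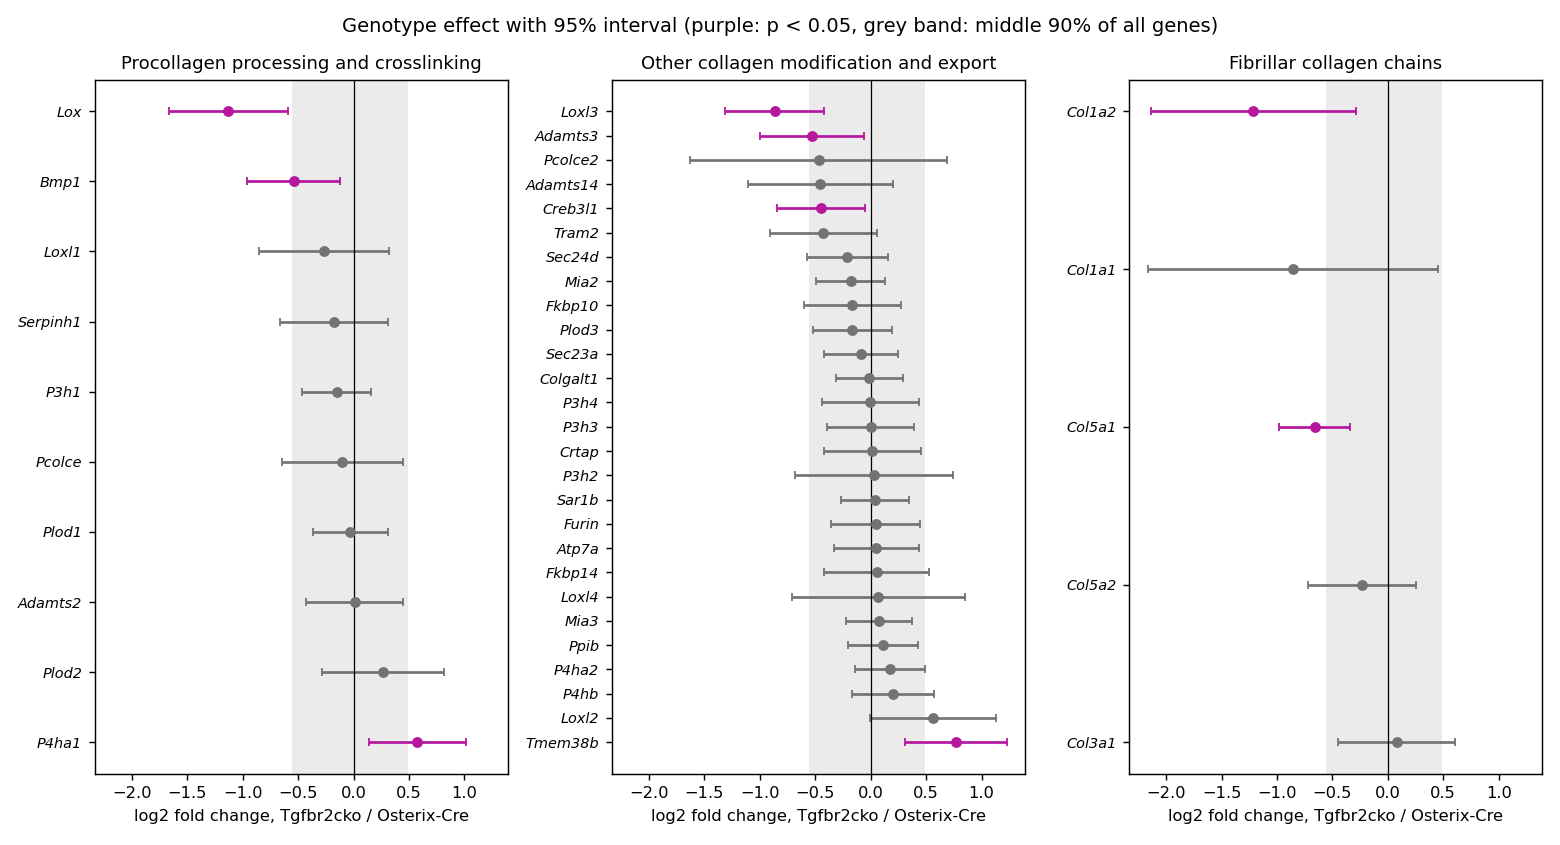
log2 fold change of each gene (*Tgfbr2cko* over Osterix-Cre) with its 95% interval, for the 10 genes, 27 further collagen genes and 5 fibrillar collagen chains; purple marks an unadjusted limma p under 0.05 and the grey band holds the middle 90% of all genes. *Lox*, at -1.13, lies farthest out among the 10, and *P4ha1*, at 0.58, is the one of the 10 in purple above 0.

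To set each of the 10 genes against type I collagen, the log2 ratio to the summed *Col1a1* and *Col1a2* level was taken within each library, which removes the scaling of the library. For *P4ha1* the ratios were -9.64, -9.30, -9.25 and -9.74 in Osterix-Cre and -7.79, -7.72, -8.30 and -8.01 in *Tgfbr2cko*. All mutant ratios lay above all control ratios, by 1.53 on average or 2.88-fold (exact permutation p = 0.0286), and by 1.44 to 1.64 in the 8 runs that left out 1 library. The *Lox* ratios were -8.10, -7.64, -7.78 and -7.56 across controls 49 to 52 and -7.86, -7.72, -8.26 and -7.94 across the mutants. They overlapped, and their difference of -0.18 was within the spread (exact permutation p = 0.314); against *Col1a2* alone it was 0.087. Of all genes, 1.11% had a lower difference of this ratio than *Lox*. The same collagen difference is subtracted from each gene, so this rank is that of the plain log2 fold change. It tells nothing further about *Lox* relative to collagen.

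The ratio to type I collagen was higher in the mutants for 9 of the 10 genes. For 6 of them the genotypes did not overlap (*Pcolce* 0.85, *Adamts2* 0.96, *Plod1* 0.92, *Plod2* 1.21, *P4ha1* 1.53 and *Serpinh1* 0.77 on the log2 scale, each with an exact permutation p of 0.0286, unadjusted over 10 ratios). With type I collagen as the shared denominator, the median difference of this ratio over all genes was 0.94, and 19.4% of all genes had higher mutant ratios without overlap. *P3h1* differed by 0.80 (exact permutation p = 0.0571), *Loxl1* by 0.68 (p = 0.257, exact permutation test) and *Bmp1* by 0.41 (p = 0.343, exact permutation test). With 1 library left out, *Loxl1* ran from 0.36 (without control 52) to 1.04 (without control 50) and *Bmp1* from 0.15 (without mutant 53) to 0.64 (without mutant 55). The number of ratios with an exact permutation p under 0.05 was 3 rather than 6 when control 52 or mutant 53, 54 or 56 was left out, while the 6 differences stayed between 0.64 and 1.64 over the 8 runs.

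**Figure D4:**
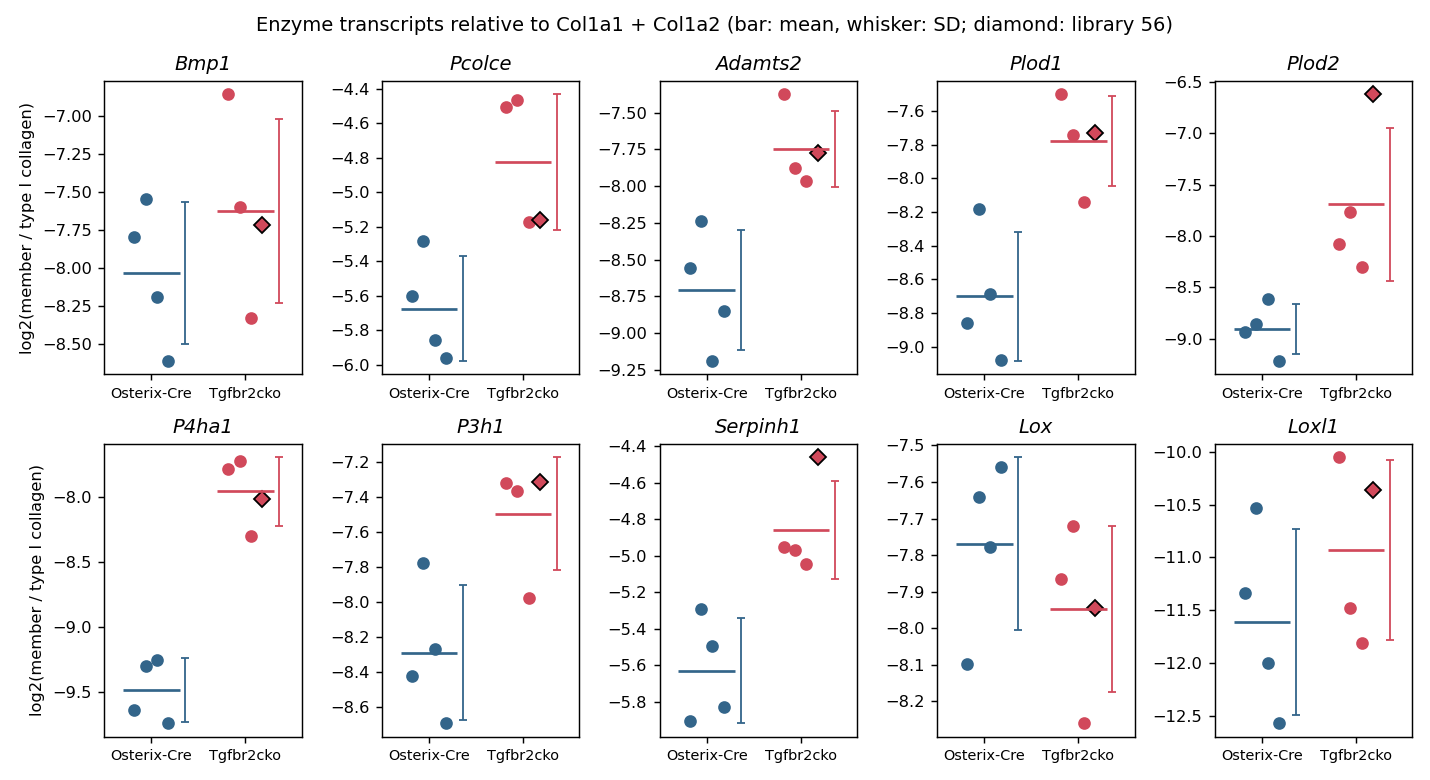
log2 ratio of each gene to the summed level of *Col1a1* and *Col1a2* in each library, with the mean as a bar and the SD as a whisker; the diamond marks the library labelled Tgfbr2cko 56, and each panel has its own axis. The genotypes lie apart for 6 genes, by 1.53 for *P4ha1*, and overlap for *Lox*, whose means differ by -0.18.

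The wider pathway was described with a list of 33 other genes of collagen modification, folding, export and crosslinking, of which 27 were measured; *P4ha3*, *Colgalt2*, *Tll1*, *Tll2*, *Mep1a* and *Mep1b* were not analysed here. Of the 27, 1 rose and 3 fell at an unadjusted limma p under 0.05, 2 also changed at least 1.5-fold, and none had an adjusted p under 0.05, beside 8.38%, 5.77% and 0.947% of all genes for these 3 thresholds. Their median log2 fold change was -0.0011, with 13 means higher and 14 lower in the mutants. None of 8 further hydroxylation genes passed, from *Plod3*, which adds both hydroxyl groups and sugars, at -0.17 to *P4hb*, the partner subunit of *P4ha1*, at 0.20. *Plod3* ran from -0.26 without mutant 53 to -0.073 without mutant 54, and was at -0.55 with a block on the title number. The one glycosyltransferase gene measured, *Colgalt1*, differed by -0.012, and 0.075 without the library labelled Tgfbr2cko 56. Of 10 folding and export genes, 2 passed. *Tmem38b*, a cation channel of the endoplasmic reticulum mutated in a recessive form of osteogenesis imperfecta, had log2 values of 2.72, 3.04, 2.41 and 2.81 for the controls and 3.49, 3.54, 3.59 and 3.43 for the mutants, on 50 to 145 reads. It rose by 0.77 (standard error 0.21, limma p = 0.00317, adjusted p = 0.142, exact permutation p = 0.0286). No mutant overlapped a control, and the share of all genes so separated in the higher direction was not counted. The difference was 0.79 without the library labelled Tgfbr2cko 56, and the adjusted limma p was 0.0467 with library weights. *Creb3l1*, which encodes the transcription factor OASIS, a regulator of *Col1a1* in bone, fell by 0.45 (limma p = 0.0284, adjusted p = 0.454, exact permutation p = 0.0286). Without the library labelled Tgfbr2cko 56 its difference was -0.26 and no longer passed (unadjusted limma p of 0.0695, adjusted p = 0.593). Nor did it pass without control 49 (unadjusted limma p of 0.0622) or control 51 (0.0721).

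Of 4 further genes for propeptide removal, *Furin*, which activates proteinases of this group, was highest at 0.044 (from -0.050 to 0.19 with 1 library left out), and *Adamts3*, a second amino-propeptide proteinase, fell by 0.53 (limma p = 0.0307, adjusted p = 0.471, exact permutation p = 0.0857). Without the library labelled Tgfbr2cko 56 the difference of *Adamts3* was -0.33 and did not pass (unadjusted limma p of 0.0874, adjusted p = 0.642). It also did not pass without control 50 (unadjusted limma p of 0.0876), control 51 (0.0618) or mutant 54 (0.0609). Of 4 further crosslinking genes, *Loxl3* fell. Libraries 49 to 56 gave log2 values of 7.26, 7.23, 7.62 and 7.40 in Osterix-Cre and 6.49, 6.91, 6.78 and 5.87 in *Tgfbr2cko*, with every mutant below every control. The log2 difference was -0.87 with a standard error of 0.21 (unadjusted limma p of 0.00104, adjusted p = 0.0756), and -0.65 without the library labelled Tgfbr2cko 56. Over all settings without a block on the title number its adjusted limma p ran from 0.0334 with library weights to 0.238 without control 51. The exons of *Loxl3* share 11.6% of their bases with *Htra2* on the opposite strand, and reads there could not be told apart. *Loxl2* differed by 0.56 in the other direction and did not pass (limma p = 0.0537, exact permutation p = 0.143). It passed without control 51 (0.71, unadjusted limma p of 0.0264) or mutant 54 (0.74, unadjusted limma p of 0.0160), and it was 0.36 without the library labelled Tgfbr2cko 56.

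The 10 genes were also compared across libraries after removal of each genotype's mean, which leaves differences between libraries of the same genotype. Pearson's r is given as a description over 8 libraries, in each of which the genes share the depth, the dissection and the cell makeup. Of 45 pairs, 31 had an r above 0 and 6 above 0.8, with a median of 0.33. The count above 0.8 was 10 without control 51 or without the library labelled Tgfbr2cko 56. *P3h1*, *P4ha1*, *Plod1* and *Lox* varied together, with r of 0.91 for *P3h1* and *P4ha1*, 0.90 for *P3h1* and *Plod1* and 0.86 for *Lox* and *P4ha1*. *Loxl1* varied in the opposite direction, with r of -0.82 to *Lox*, -0.81 to *P4ha1* and -0.80 to *Serpinh1*. *Plod2* had an r of -0.76 to *Bmp1* and 0.11 to *P4ha1*, and the latter was 0.95 without the library labelled Tgfbr2cko 56. Without it the r of *Plod1* to *Pcolce* was 0.32 in place of 0.82, and that of *Plod1* to *Serpinh1* 0.95 in place of 0.55. The 5 other genes whose centred values were most like the mean of the 10 were *Pdk1* (0.989), *Irgq* (0.986), *Nfatc1* (0.985), *AI467606* (0.985) and *Bcan* (0.982). These r are the highest picked from 12148 genes over only 8 libraries. Not all of the 10 followed their mean, with an r of -0.67 for *Loxl1*, -0.11 for *Plod2* and 0.33 for *Bmp1*. The others had 0.60 (*Serpinh1*) to 0.93 (*Plod1*). Without the library labelled Tgfbr2cko 56, *Loxl1* had -0.86, *Plod2* 0.81 and *Bmp1* -0.47. *Col1a1* had an r of 0.89 to the mean of the 10 and *Dspp*, which encodes the main noncollagenous dentin protein, 0.88. The other fibrillar chains ranged widely, with 0.83 for *Col1a2*, 0.53 for *Col5a2*, 0.25 for *Col5a1* and -0.33 for *Col3a1*. *Lum*, of the pulp mesenchyme list, had 0.084 and *Amelx* -0.46. Without the library labelled Tgfbr2cko 56 these last r were -0.97 for *Lum* and 0.20 for *Amelx*.

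**Figure D5:**
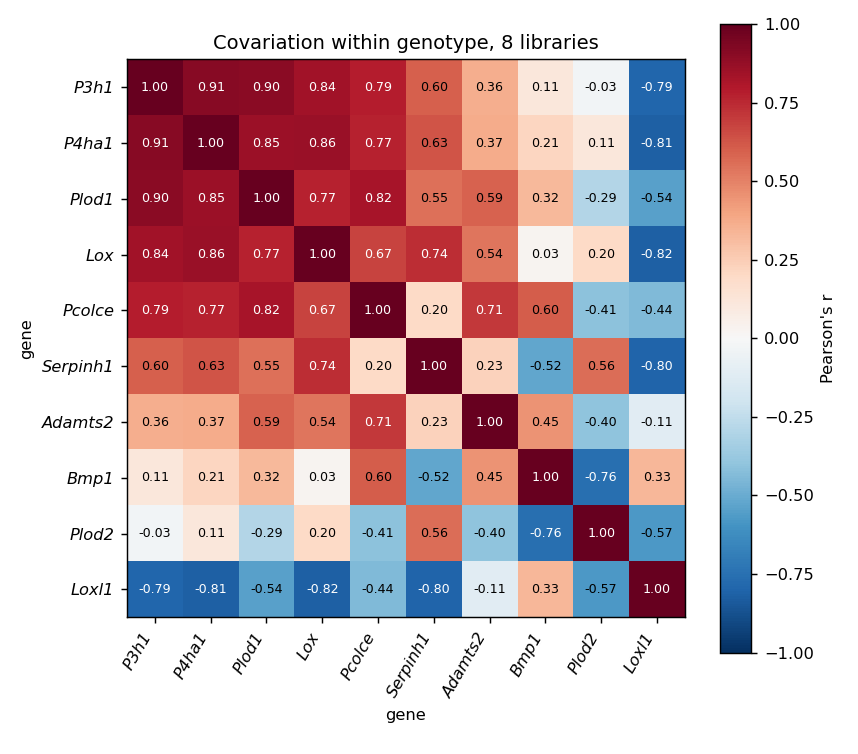
Pearson's r between the 10 genes over 8 libraries, each value taken after subtracting the mean of its genotype; red is positive and blue negative. *P3h1*, *P4ha1*, *Plod1* and *Lox* form a red block with r of 0.77 to 0.91, while *Loxl1* is blue with most of the others.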

How the data were processed

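RNA from P7 dental pulp was amplified from low input and sequenced by the authors. Per the labels and the submitters' processing notes, reads were handled with fastp 0.21.0, HISAT2 2.1.0, featureCounts of Subread 2.0.1 and limma, on GRCm38.p5. The deposited values are log2 CPM from voom, computed by the authors with 0.5 added to each count. Authors also kept only genes that their workflow listed as quantifiable. Strand use in counting is not given in the sources used here. All 97184 values returned whole reads (largest distance 1.42e-05), from 8682872 to 13539670 per library. The precision of a value covers counting error only, since amplified reads are not independent molecules.

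Genotypes were compared with a two-sided limma test with intensity trend (limma 3.58.1, R 4.3.3) over all 12148 genes, with Benjamini-Hochberg adjustment. Standard errors and 95% intervals come from that fit. Single values and ratios were compared by the two-sided exact permutation test over 70 arrangements. No low-value filter was added. The fit was tested on simulated data. Gene positions and exon lengths came from GENCODE M21. Alternatives were no trend, library weights, voom weights, quantile normalization, median centring, a mean log2 value of at least 3, averaging libraries that share a title number, an enamel matrix covariate, a 2-fold threshold, *Col1a2* alone as reference and leaving out each library. Leaving enamel reads out of the totals, a block on title number, the longest transcript as length and correlations with a library left out were added after the data were seen. The genes and lists were chosen with earlier results of these data known. The text names all 10 genes, 5 substrates and *Tgfbr2*. From the wider list it names each gene at p under 0.05 and the highest and lowest fold change of each role. It also names the 5 genes most like the mean of the 10. Other genes named (*Amelx*, *Ambn*, *Dspp*, *Lum*, *Htra2*, *Fbxo24*, *Gm38391*, *Gm36266*) were chosen with values seen. Figures used Python 3.11.15 and matplotlib 3.10.9.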

Additional observations from a re-analysis of the deposited data

Results flagged for a closer look

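In groups of 4 libraries, a library was set apart when its gap to the nearest other was above Dixon's 95% critical share of the group's range. Of 64 groups checked, 7 held such a library, and chance gives about 1 in 20. Control 49 had the highest *Bmp1* value of its genotype, 8.48 against 8.15 to 8.19, and the lowest *Col3a1* value, 9.81 against 10.53 to 10.65. The library labelled Tgfbr2cko 56 had the lowest *Creb3l1* value of the mutants, 6.33 against 7.02 to 7.12, and the highest *Col3a1* value, 11.003 against 10.22 to 10.33. The same library had the highest log2 ratio of *Serpinh1* to type I collagen, -4.46 against -5.05 to -4.95. Mutant 53 had the lowest *Col5a2* value, 9.22 against 9.68 to 9.75. Mutant 55 had the lowest log2 ratio of *P3h1* to type I collagen, -7.97 against -7.37 to -7.31.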

How the results depend on the processing

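The count of genes at an unadjusted limma p under 0.05 was 3 of the 10 in every setting that kept all 8 libraries and had no block, and was 2 to 3 when 1 library was left out. The count changed at least 1.5-fold was 2 in place of 1 with library weights, quantile normalization, the enamel matrix covariate or enamel reads left out of the totals; it stayed at 1 with the 2-fold threshold and ran from 1 to 3 with a library left out (3 without mutant 53, 2 without control 51 or 52 or the library labelled Tgfbr2cko 56). *P4ha1*, at 1.49-fold, lies close to that threshold. The count at an adjusted limma p under 0.05 was 1 with library weights and 0 to 1 with a library left out, and the gene was *Lox*. Of all 12148 genes, 258 had an adjusted limma p under 0.05 with library weights, beside 115 in the main fit. The *Pcolce* fold change turned to 0.14 with library weights and 0.074 with the enamel covariate, with -0.24 to 0.15 over the left-out libraries. *Plod1* turned to 0.058 with library weights, 0.062 with the enamel covariate and 0.049 with enamel reads left out of the totals, with -0.11 to 0.091 over the left-out libraries. *Adamts2* ran from -0.13 to 0.15 and the ratio of *Plod2* to *Plod1* from -0.048 to 0.51 on leaving out a library. The ratio of *Lox* to type I collagen turned to 0.087 against *Col1a2* alone. The number of ratios with an exact permutation p under 0.05 was 7 against *Col1a2* alone and 3 to 5 with a library left out. The median of the 10 was -0.017 with library weights, -0.021 with the enamel covariate, -0.050 with enamel reads left out of the totals and -0.18 to -0.018 with a library left out. Of the wider list, 3 to 5 genes passed without a block. *Col1a2* did not pass after quantile normalization (unadjusted limma p of 0.0584), nor *Creb3l1* (p of 0.0751) and *Adamts3* (p of 0.0889) with the enamel covariate. The causes of these shifts were not tested. The title numbers have no stated meaning, and number 2 alone occurs in both genotypes, so a model with title number as replicate block estimates genotype from control 51 against mutants 54 and 55. In it 1 of the 10 genes passed (*Lox*, -0.89, unadjusted limma p of 0.00715), 2 of the wider list passed, and no gene of the table had an adjusted p under 0.05 (315 at an unadjusted p under 0.05). With this block *P4ha1* was at 0.56 and *Bmp1* at -0.45, and *Pcolce* (0.36), *Plod1* (0.067) and *Plod2* (-0.093) changed sign, as did *Loxl2* (-0.16), *Col3a1* (-0.25) and *Furin* (-0.11), and *Adamts2* was at 0.59. With 4 libraries a group, the exact test cannot go below 0.0286.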
